A study of Mus musculus with 4 samples.

Results

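The aryl hydrocarbon receptor (AHR) genes described here are Ahr, its partner Arnt, its repressor Ahrr, and the target genes Tiparp, Cyp1a1, Cyp1a2 and Cyp1b1. They were chosen by symbol: every probe set annotated to 1 of these 7 genes was taken, 16 probe sets of the 34945 that had a single gene symbol. The 7 are among 18193 genes measured in mouse liver. Livers came from C57BL/6J mice aged 2 months that were injected intraperitoneally in a first and a second exposure with ethylbenzene, an aromatic solvent, or with phosphate-buffered saline (PBS). The first exposure was 2 injections 24 h apart, the second came 7 days later, tissue was taken 5 h after it, and each ethylbenzene dose was 7 mmol per kg. Group E+E received ethylbenzene in both exposures (5 mice), E+P ethylbenzene and then PBS (3 mice), P+E PBS and then ethylbenzene (5 mice), and P+P PBS in both (3 mice). Per the series design, the animals of a group were pooled into a single RNA sample, and 1 array was run per group. There was therefore no replicate and no test against animal-to-animal spread, and the number of mice pooled went with the second exposure and cannot be told apart from it.

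AHR is a ligand-activated transcription factor of the bHLH-PAS family. It waits in the cytoplasm bound to HSP90 and, once a ligand binds, enters the nucleus, pairs with ARNT and binds DNA elements with the core GCGTG. Aromatic pollutants such as dioxins and polycyclic hydrocarbons are its classical ligands, and strong induction of Cyp1a1 is the textbook sign of its activation in liver. AHRR and TIPARP are products of AHR target genes that dampen the receptor in turn, whereas Cyp1a2 is expressed in hepatocytes around the central vein without added ligand.

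Promoter windows are shown for the target that rose and for the 2 CYP1A genes that did not, to set the DNA element that the receptor binds beside the values below. Each window runs from 250 bases before to 50 bases after the start site in RefSeq annotation of GRCm38.p6, 5′ to 3′ on the gene's strand, and capitals mark GCGTG or its reverse complement CACGC. The windows lie at chr3:65528197-65528496 on the plus strand for Tiparp, at chr9:57697363-57697662 on the plus strand for Cyp1a1, and at chr9:57683606-57683905 on the minus strand for Cyp1a2.
Tiparp: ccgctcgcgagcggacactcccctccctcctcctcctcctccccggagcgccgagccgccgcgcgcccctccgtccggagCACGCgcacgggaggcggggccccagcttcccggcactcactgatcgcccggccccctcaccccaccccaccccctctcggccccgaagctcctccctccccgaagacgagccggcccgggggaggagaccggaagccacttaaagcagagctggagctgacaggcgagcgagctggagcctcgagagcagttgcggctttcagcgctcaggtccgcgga
Cyp1a1: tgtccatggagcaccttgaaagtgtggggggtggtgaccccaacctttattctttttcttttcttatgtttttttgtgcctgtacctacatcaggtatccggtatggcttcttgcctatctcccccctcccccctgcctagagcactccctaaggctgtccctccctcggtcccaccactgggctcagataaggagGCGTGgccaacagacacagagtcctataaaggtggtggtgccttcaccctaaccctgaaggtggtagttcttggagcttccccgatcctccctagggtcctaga
Cyp1a2: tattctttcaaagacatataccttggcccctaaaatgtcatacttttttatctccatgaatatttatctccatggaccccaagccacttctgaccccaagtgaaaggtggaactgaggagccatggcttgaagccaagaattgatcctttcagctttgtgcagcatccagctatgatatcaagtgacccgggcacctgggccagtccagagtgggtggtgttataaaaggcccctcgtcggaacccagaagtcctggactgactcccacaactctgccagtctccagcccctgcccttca
The core motif was found once in the Tiparp window, on the minus strand at -170 from the start site, and once in the Cyp1a1 window, on the plus strand at -54. It was not in the Cyp1a2 window. Arnt held 1 match at -29, Cyp1b1 held 1 on the minus strand at -76, and Ahrr held 3, at -107, -82 and -27, of which the last is also the only match among the 6 windows to the extended motif TNGCGTG. A match is common, since 32.4% of 32851 promoter windows of this length hold GCGTG on either strand and 5.07% hold TNGCGTG. Cyp1a1 and Cyp1a2 have a TATAAA box at -30 and -29, a motif held by 13.6% of windows, and the GC share of the Tiparp window is 73.7% against a median of 52.7% over all windows. None of the 6 windows held a match to the AP-1 motif TGANTCA (7.81% of windows) or the E-box CACGTG (7.15%). The CREB/ATF motif TGACGTCA (1.79%) was found only in the Arnt window, at -239. Ahr has no window in the table. The well-studied AHR elements of Cyp1a1 lie further upstream than the window shown.

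The deposited values are linear signals scaled by the authors. For ratios they were quantile-normalized and put on the scale log2(signal + 43.2), and a ratio of at least 2-fold (1 on that scale) was the rule of size for calling a gene higher or lower. A gene with several probe sets was represented by the brightest, and a normalized signal of 120.0, the median probe set level, was the filter for low values. Ahr, Arnt, Tiparp, Cyp1a1 and Cyp1a2 passed it, and Ahrr and Cyp1b1 did not. Pairs of log2 ratios in the text give P+E against P+P first and E+E against E+P second.

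The P+P array stood apart from the others in ribosomal RNA signal. The 3 control probe sets of 18S RNA averaged (geometric mean) 122 to 182 on E+E, E+P and P+E, against 1872 on P+P. The ratio of 3′ to 5′ signal for the actin control was also highest there, at 4.55, while the other arrays spanned 3.48 to 3.84. How far either difference bears on the ratios was not tested. The ratio E+E against E+P does not compare signals with the P+P array. P+P still entered the quantile normalization, the pseudocount, the filter and the choice of the brightest probe set. Hepatocyte markers bore out the tissue label, with Alb between 145040 and 196579, although Apob was 79436 on E+P and 63097 on P+E, against 28499 on P+P.

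After the second exposure, Tiparp and the receptor gene Ahr itself passed the 2-fold rule upward in each ratio, 2 of the 7 genes. Over all 11513 genes past the filter, 13.2% were at least 2-fold apart either way on P+E against P+P and 13.7% on E+E against E+P, with 6.53% and 6.91% higher. In both ratios together, 2.87% were higher and 1.86% lower. The CYP1 enzymes of the classical response did not share this change: neither Cyp1a1 nor Cyp1a2 was at least 2-fold higher in either ratio, and the 3 probe sets of Cyp1b1 disagreed.

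The receptor gene Ahr had a deposited signal of 3899 on P+E, against 1323 on P+P, and of 4068 on E+E, against 1452 on E+P. Both arrays after ethylbenzene lay far above both arrays after PBS. These values correspond to log2 ratios of 1.59 and 1.50, or 3.01-fold and 2.83-fold. The second Ahr probe set, which is annotated to the same expressed sequence, read 747.0 on P+E against 166 on P+P and 708 on E+E against 304 on E+P. Its log2 ratios were 1.84 and 1.09, so both probe sets were at least 2-fold higher in both comparisons. By its ratio Ahr ranked 280th from the highest of the 11513 genes on P+E against P+P, and 347th on E+E against E+P.

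Arnt, which encodes the obligate DNA-binding partner of AHR, had no common direction. Its brightest probe set read 576 on P+E, against 785 on P+P, and 1192 on E+E, against 903 on E+P, giving log2 ratios of -0.40 and 0.42. The next brightest, 396 on P+E against 337 on P+P and 526 on E+E against 457 on E+P, gave 0.14 and 0.17. The third read 289 on P+E against 206 on P+P and 416 on E+E against 300 on E+P, for 0.29 and 0.36. The remaining 2 probe sets were dim: the fourth gave 0.58 and -0.40, and the fifth, with 14.0 on P+P and between 157 and 233 on the other arrays, gave 1.67 and -0.51. With signals below 120.0 set to that level, the 1.67 became 0.21. None of the 5 passed the 2-fold rule in a common direction in both ratios.

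Ahrr, whose product competes with AHR for ARNT, was below the filter level on every array. Its single probe set read 16.2 on P+E, against 6.10 on P+P, and 21.2 on E+E, against 4.60 on E+P. Both groups of each comparison lie under the filter level, so no fold is given.

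Tiparp encodes an ADP-ribosyltransferase (also called PARP7) that acts as a feedback inhibitor of AHR. It had the highest ratios of the 7 genes that rest on a signal above the filter level on all arrays. The brightest probe set read 3027 on P+E, against 323 on P+P, and 3946 on E+E, against 307 on E+P. A second read 2023 on P+E against 199 on P+P and 2283 on E+E against 297 on E+P. The third read 1749 on P+E against 105 on P+P and 2032 on E+E against 306 on E+P. No value after ethylbenzene came near any value after PBS in any of the 3 probe sets, which are all annotated to 1 expressed sequence. The log2 ratios were 3.04 and 3.49 for the brightest, 3.04 and 2.76 for the second and 3.52 and 2.56 for the third (3.48 with P+P set to the filter level). In fold terms they spanned 8.20 to 11.5 in the first ratio and 5.92 to 11.3 in the second. By the brightest, Tiparp ranked 47th and 30th from the highest of all genes past the filter.

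Cyp1a1, a monooxygenase that oxidizes polycyclic hydrocarbons and is the most inducible AHR target, stayed dim. Its single probe set read 86.8 on P+E, against 164 on P+P, and 224 on E+E, against 125 on E+P. The log2 ratios were -0.83 (-0.44 with the P+E signal at the filter level) and 0.54, which differ in sign, as they did for 34.7% of all genes past the filter, and neither reached 2-fold with the pseudocount used. The values on the 4 arrays lie close to the filter level, where a ratio depends on the pseudocount.

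Cyp1a2, which oxidizes caffeine and aromatic amines and is abundant in uninduced liver, read 26862 on P+E, against 37325 on P+P, and 26408 on E+E, against 39667 on E+P. Both arrays after ethylbenzene were below both arrays after PBS, by log2 ratios of -0.41 and -0.57 (1.33-fold and 1.48-fold lower), short of the 2-fold rule. On these arrays 25.2% and 17.3% of the genes past the filter had a ratio at or below that of Cyp1a2. In pooled tissue, fewer cells of a type and less RNA per cell cannot be told apart.

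Cyp1b1, the CYP1 enzyme typical of cells other than hepatocytes, gave 3 different patterns. The brightest probe set read 252 on P+E, against 15.8 on P+P, and 147 on E+E, against 25.4 on E+P. Its log2 ratios of 2.21 and 1.36 became 0.80 and 0.15 with signals below the filter level set to that level. The second read 120.3 on P+E, against 159 on P+P, and 78.4 on E+E, against 7.80 on E+P, and the third read 136 on P+E, against 62.5 on P+P, and 33.1 on E+E, against 20.8 on E+P. With low signals at the filter level, their ratios were -0.40 and 0.00, and 0.05 and 0.00. A direction for Cyp1b1 cannot be given from these values.

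**Figure D1:**
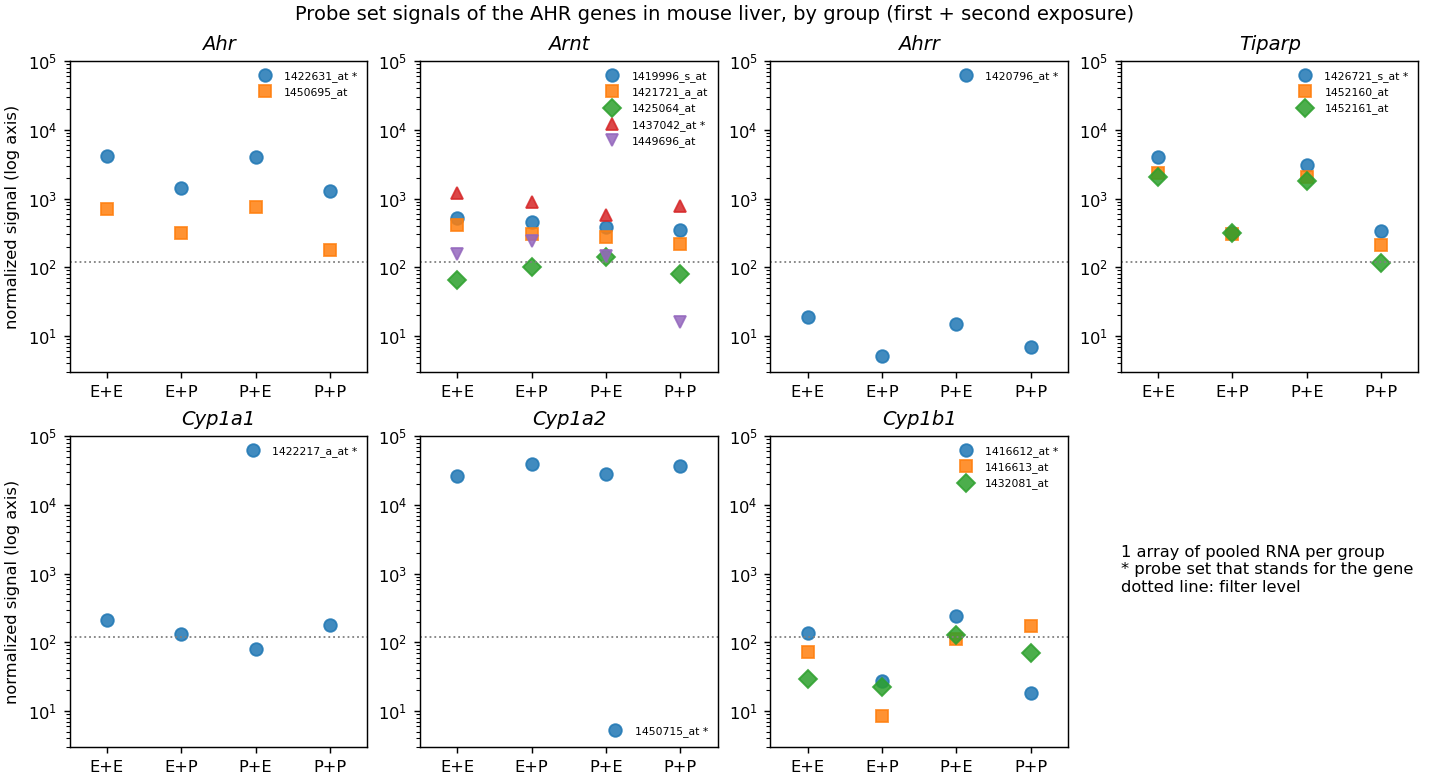
Normalized signal (log axis) of all 16 probe sets of the 7 AHR genes on the 4 arrays, 1 point per array. The Ahr and Tiparp probe sets are higher on E+E and P+E than on E+P and P+P, Cyp1a2 is slightly lower there, Ahrr lies wholly below the dotted filter level of 120.0, and Cyp1a1 lies around it.

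**Figure D2:**
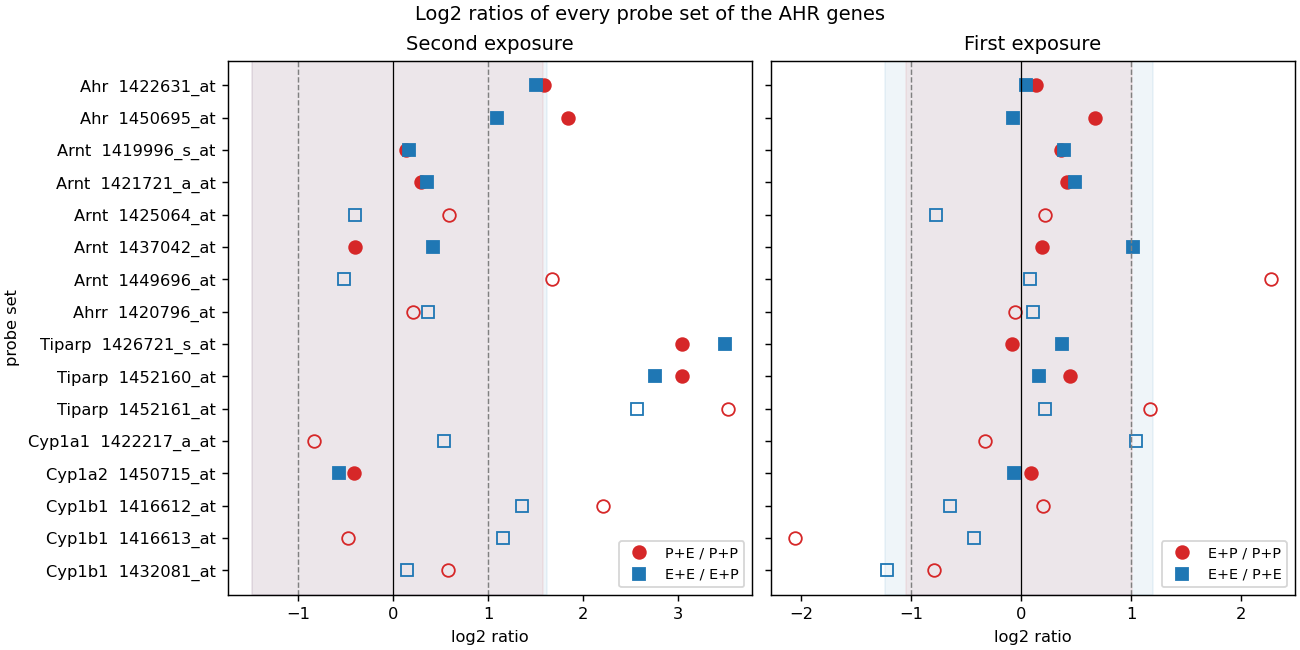
Log2 ratios of each probe set for the second exposure (left) and the first (right), open where the probe set was below the filter level on at least 1 array. Shading spans the central 95% of all genes past the filter, and dashed lines mark 2-fold; the Tiparp points stand between 2.56 and 3.52 on the left.

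The first exposure, 7 days earlier, was read from E+P against P+P and from E+E against P+E, in this order in what follows. On E+P against P+P, 5.31% of all genes past the filter were at least 2-fold apart either way, and none of the 5 genes that passed was. On E+E against P+E the share was 7.96% (3.98% higher), and Arnt and Cyp1a1 were just past 2-fold higher. Ahr was at 0.13 and 0.05, and its second probe set at 0.67 and -0.08. Tiparp was at -0.09 and 0.37 by its brightest probe set, 0.44 and 0.17 by the second and 1.17 and 0.21 by the third, whose P+P signal of 105 was below the filter level once normalized. Cyp1a2 was at 0.09 and -0.07.

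Arnt was at 0.19 and 1.01 by the brightest probe set, on signals of 1192 on E+E against 576 on P+E. Its other probe sets read 0.39, 0.49, -0.77 and 0.08 in the second of these ratios, and the mean over all 5 was 0.24. In the first they read 0.36, 0.42, 0.22 and 2.27 (0.80 with low signals at the filter level), so all 5 were above 0, with a mean of 0.69. Cyp1a1 was at -0.33 and 1.04, and the latter fell short of 2-fold, at 0.65, with the P+E signal set to the filter level. So the 2-fold difference of Arnt rested on 1 of 5 probe sets, and that of Cyp1a1 on a P+E signal below the filter level.

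Whether the first exposure went with a different response to the second was read from the difference of the 2 second-exposure ratios (E+E against E+P minus P+E against P+P). It was -0.09 for Ahr, 0.46 for Tiparp, -0.16 for Cyp1a2, 0.82 for Arnt and 1.37 for Cyp1a1, by the brightest probe set of each. The second Ahr probe set gave -0.75, and the other Arnt probe sets gave 0.03, 0.07, -0.99 and -2.19, so neither gene had 1 value across its probe sets. Over all genes past the filter, 15.1% had a difference of at least 1 in size. Of the other Tiparp probe sets both had the larger ratio in mice given PBS first, the reverse of the brightest one.

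Genes around the receptor were read from 10 lists, each set beside all genes past the filter, whose median ratios were -0.07 and -0.05. Of 8 genes past the filter in the receptor complex and its turnover, only Ahr passed the 2-fold rule in both ratios (medians -0.06 and 0.18). Hsp90aa1, a chaperone that holds AHR in its ligand-binding form, was at 0.57 and 0.91, Arnt2, a relative of Arnt, at 0.38 and 0.15, and Cul4b, a ubiquitin ligase scaffold, at -0.26 and -0.74. Among 10 coregulators (medians 0.01 and 0.03), Nrip1, a nuclear receptor cofactor also known as RIP140, was the only one past 2-fold. It read 1996 on P+E against 741 on P+P and 2332 on E+E against 834 on E+P, with log2 ratios of 1.41 and 1.47 and all 6 of its probe sets above 0 in both. Ncoa3 was at -0.67 and -0.03, Smarca4 at 0.39 and 0.34 and Esr1 at -0.43 and -0.21.

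Other AHR targets of mouse liver did not rise as a group. Of 12 past the filter, none passed the 2-fold rule upward in both ratios and 1 passed it downward, and the medians were -0.37 and -0.04. The lower one was Slc46a3, a lysosomal transporter gene, which read 1039 on P+E against 2914 on P+P and 1193 on E+E against 3666 on E+P, with log2 ratios of -1.42 and -1.55. Gsta2, a glutathione transferase, was at 0.14 and 1.01, Tnfaip2 at 0.63 and 0.58 and Nfe2l2, which encodes NRF2, at -0.61 and -0.49. Nqo1, a quinone reductase shared by the AHR and NRF2 batteries, read 288 on P+E against 314 on P+P and 257 on E+E against 201 on E+P. Aldh3a1, Cyp2s1 and Serpinb2 were below the filter level on average.

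The enzymes of tryptophan breakdown, which form endogenous AHR ligands such as kynurenine, held 10 genes past the filter, none of them at least 2-fold apart in either ratio (medians 0.01 and 0.00). Kynu, which cleaves kynurenine, was highest at 0.81 and 0.88, followed by Kyat1 at 0.38 and 0.34, with Aadat at -0.48 and -0.21 and Afmid at 0.03 and -0.51. Tdo2, the first enzyme of the pathway in hepatocytes, was at -0.02 and -0.18.

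Of the 18 relatives of Tiparp among ADP-ribosyltransferases and hydrolases, none passed the 2-fold rule in both ratios (medians -0.03 and 0.11). Parp2, a DNA-damage-activated enzyme, came nearest at 0.79 and 0.76. Tnks2 was at 0.14 and 0.72, Parp6 at -0.30 and 1.13 and Parp8 at -0.84 (-0.48 with P+E at the filter level) and -0.04. A second list gives immediate early genes, which many stress signals induce within hours. Of 18 past the filter, 11 passed the 2-fold rule upward in both and none downward, with medians of 1.28 and 1.42. Junb (3.27 and 3.04) and Egr1 (3.06 and 2.98), both transcription factors, had ratios close to those of Tiparp. Btg2, a growth-inhibitory gene, was at 3.33 and 2.33 and Jun at 2.52 and 2.25. Atf3 (1.82 and 3.62) and Ier3 (1.01 and 3.56) had signals below the filter level on E+P and P+P. With these at that level Atf3 was at 1.63 and 2.39, and Ier3 was at 0.86, short of 2-fold, and 2.34. Fosl2 (1.94 and 2.23, the first 1.85 with P+P at the filter level), Klf6 (2.19 and 1.49), Jund (1.12 and 1.53), Zfp36 (1.28 and 1.35) and Csrnp1 (1.28 and 1.28) made up the 11. Probe sets disagreed for some of them: 1 of 2 for Fosl2 was above 0 in the first ratio. In the second ratio, 1 of 2 for Jund and 4 of 5 for Klf6 were above 0.

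Among 12 bHLH-PAS relatives and PAS coactivators, 2 passed the rule upward and 2 downward in both (medians 0.11 and 0.07). Arntl, the clock gene also called Bmal1, was at 1.99 and 1.75, and Hif1a, the oxygen-regulated subunit that also pairs with ARNT, read 1638 on P+E against 777 on P+P and 2083 on E+E against 852 on E+P (1.07 and 1.29). Per1 (-1.66 and -2.82, the second -1.64 with E+E at the filter level) and Per3 (-1.69 and -2.45), which carry PAS domains and repress the clock, were lower.

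The supply of heme and electrons to CYP1 enzymes gave medians of -0.28 and -0.15 over 11 genes, with Hmox1, which degrades heme, the only one past 2-fold in both (3.15 and 3.61). Alad, Fech and Cpox of heme synthesis were at -0.75 and -0.65, -0.50 and -0.52, and -0.28 and -0.46. The pericentral hepatocyte list, to which Cyp1a2 and Ahr belong, had medians of -0.41 and -0.58 over 14 genes, or -0.41 and -0.65 over the 12 others, beside -0.41 and -0.57 for Cyp1a2. By their brightest probe sets, Lgr5 (-1.51 and -1.45, the first -1.04 with P+E at the filter level) and Slc1a2 (-1.01 and -1.27) were lower in both. Their probe sets disagreed: of 2 for Lgr5, 1 was above 0 in the second ratio. Of 5 for Slc1a2, 1 was above 0 in the first ratio and 2 in the second. Ahr was the only gene of the list at least 2-fold higher in both, and Rhbg was at -0.41 and -2.11 (-1.64 with E+E at the filter level). Of 14 liver transcription factors that sustain P450 genes (medians -0.31 and -0.78), 4 were at least 2-fold lower in both and 1 at least 2-fold higher. Foxa1 (-2.05 and -2.11), Foxa3 (-2.27 and -1.50), Cebpa (-2.03 and -1.18) and Ppara (-1.14 and -1.54) were lower, and Cebpb (1.11 and 1.30), an inflammation-responsive factor, was higher.

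**Figure D3:**
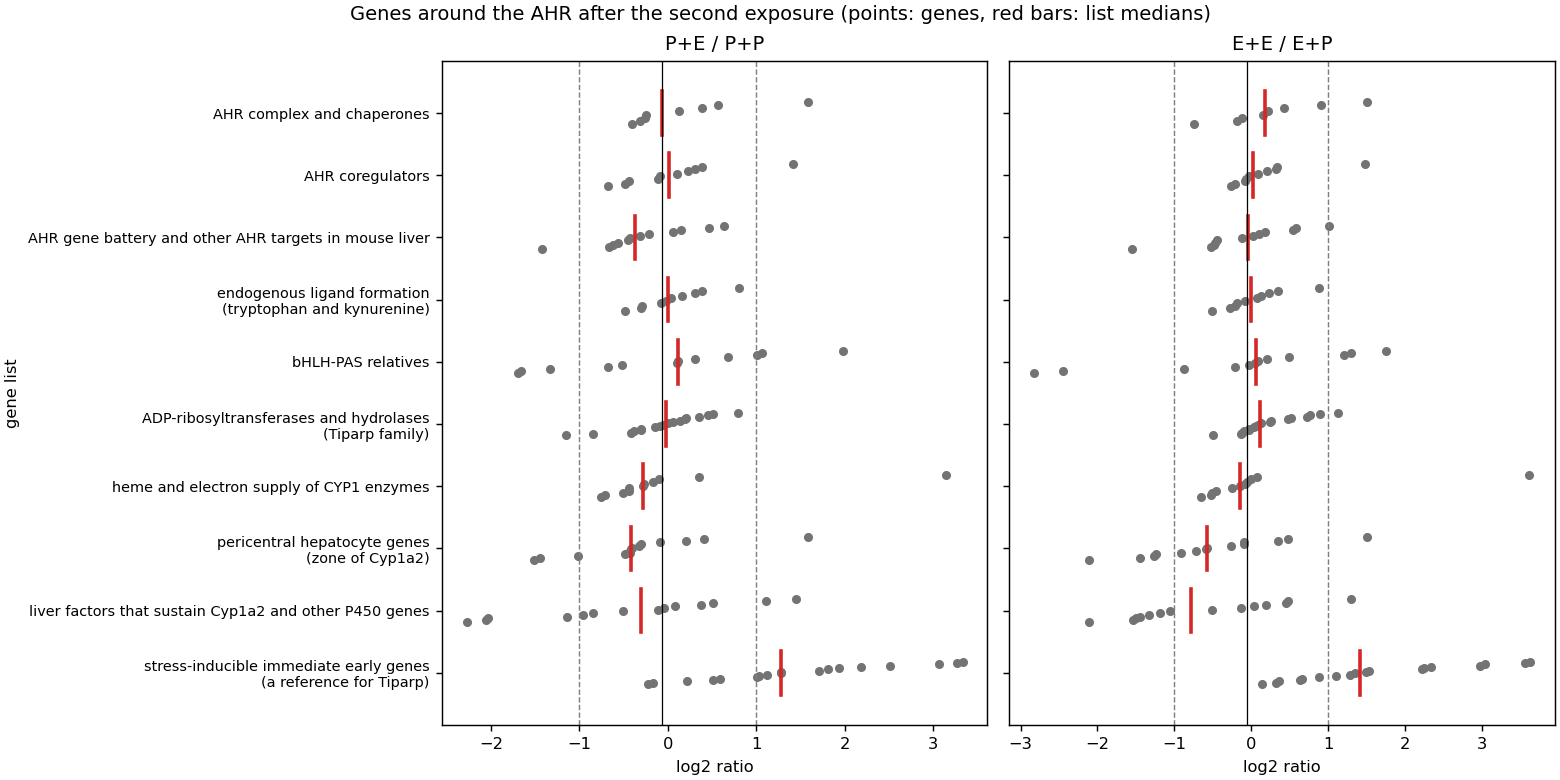
Log2 ratios of the genes past the filter in 10 lists for P+E against P+P (left) and E+E against E+P (right). Each point is a gene, red bars are list medians, the black line is the median of all genes and dashed lines mark 2-fold; the immediate early genes have medians of 1.28 and 1.42, and the other AHR targets -0.37 and -0.04.

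Markers of other cell types moved with Ahr and Tiparp in part. The summed signal of 6 neutrophil markers was 4423 on P+E against 932 on P+P and 6561 on E+E against 837 on E+P. In each ratio 3 of 6 were at least 2-fold higher, and in the first 1 was at least 2-fold lower. Of these, S100a8 (3.29 and 3.62) and S100a9 (3.62 and 4.83) were higher in both, whereas Csf3r was at 2.08 and 0.08, Ngp at -0.89 and 1.33 and Camp at -1.51 and 0.05. Some of these ratios rest on low signals. On P+P, S100a8 read 104.8 and Csf3r 88.3, below the filter level once normalized. S100a9 was below it on E+P, at 67.4, and Camp on P+E, at 52.1. The sizes of the 3.29 for S100a8, 4.83 for S100a9, 2.08 for Csf3r and -1.51 for Camp are therefore uncertain. Without S100a8 and S100a9 the remaining 4 summed to 952 on P+E against 714 on P+P and 1105 on E+E against 628 on E+P. That of 7 pancreatic acinar markers was 7374 on P+E against 2965 on P+P and 7457 on E+E against 2429 on E+P. By the 2-fold rule 6 of 7 rose in each ratio. The exception, Cela1, supplied 2394 of the P+P sum and 1922 of the E+P sum, with log2 ratios of -0.52 and -0.11. After PBS, Ctrb1, Cpa1 and Cpb1 read 9.70 to 42.1, below the filter level, so the size of their rise is uncertain. Cela3b and Cela2a were below it on E+P, at 19.8 and 63.2. Among the 6, only Prss2 (1.40 and 1.34) was above that level on every array. Sums of 7 sinusoidal endothelial markers were 9396 on P+E against 11774 on P+P and 8982 on E+E against 12017 on E+P, although Lyve1 of this list was higher, at 1.56 and 2.01. Those of 9 stellate cell and fibroblast markers, cells that can express Cyp1b1, were 22151 on P+E against 21338 on P+P and 24555 on E+E against 24830 on E+P. Sums of 7 Kupffer cell markers were 9401 on P+E against 10613 on P+P and 10892 on E+E against 17182 on E+P. Those of 6 lymphocyte markers were 705 on P+E against 473 on P+P and 834 on E+E against 574 on E+P. Only 2 of the 6 passed the filter, and Cd3g and Nkg7 were below the filter level on every array. The 4 cholangiocyte markers summed to 1046 on P+E against 873 on P+P and 1291 on E+E against 777 on E+P. They disagreed: Sox9 was at 1.54 and 2.00 and Krt19 at 0.62 and 0.33, whereas Epcam was at -1.18 and -0.03 and Krt7 at -0.56 and -0.37. Sox9 was below the filter level on P+P and E+P, at 97.3 and 100.3. The 6 hepatocyte markers summed to 699421 on P+E against 569808 on P+P and 777023 on E+E against 653757 on E+P. These sums are of deposited signals. On the normalized scale Alb was at 0.02 and 0.05, Apoa1 at -0.04 and -0.20, Cps1 at 0.02 and -0.15, Ttr at 0.05 and 0.24, Apob at 1.16 and -0.07 and Ass1 at -0.56 and -0.99. The part of other cells in the Ahr and Tiparp values was not tested.

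For the 4 genes past the filter whose log2 values spanned at least 1 over the arrays, the 5 genes with the nearest profile were found by the Euclidean distance between centred log2 values over the 4 arrays, each of which is 1 point per group. Nearest to Tiparp were B3galt1 (0.14), Hmox1 (0.16), Steap4 (0.19), Thbd (0.24) and Cpa1 (0.32), where the number is the distance on the log2 scale. Cpa1 is also among the acinar markers, and its signals after PBS were 16.9 on E+P and 12.7 on P+P, far below the filter level. Nearest to Ahr were Chic2 (0.04), Ccl6 (0.09), Pde4b (0.09), Cpeb4 (0.12) and Rhou (0.13). Chic2 read 2480 on P+E against 850 on P+P and 2609 on E+E against 946 on E+P, close to the Ahr profile in proportion. Nearest to Arnt were Htra2, Rin2, Npb, Cacna1d and Cx3cl1 (0.06 to 0.11), and nearest to Cyp1a1 were Tmbim1, Clba1, Pdlim2, Socs7 and Lypd9 (0.06 to 0.11). With 4 points a small distance is easily met among 11513 genes.

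**Figure D4:**
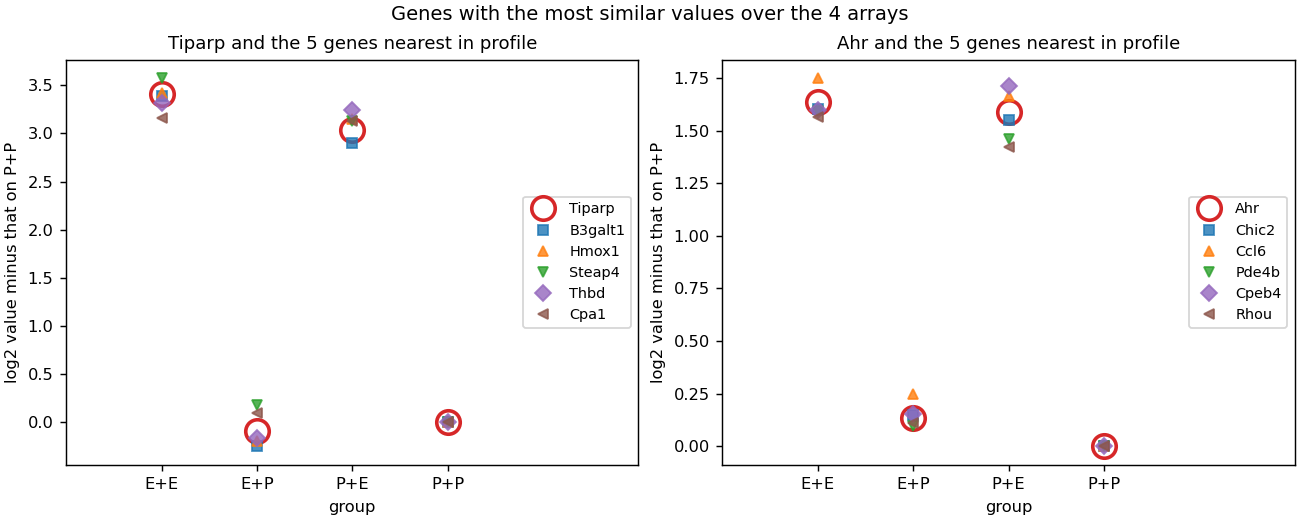
Log2 value on each array minus that on P+P for Tiparp (left) and Ahr (right, open red circles) and the 5 genes nearest to each. All lie well above their P+P value on E+E and P+E, and within 0.25 of it on E+P.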

How the data were processed

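Liver RNA pooled by group was measured on 4 Affymetrix arrays, 1 per group. The deposited values are intensities: linear probe set signals of 45101 probe sets, none missing or negative. The summarising software was not given in the sources used here. From the values, it can be seen that the authors scaled each array, since the mean without the lowest and highest 2% was 499.8 to 500.1 on every one. Groups came from the sample titles. Symbols came from the platform annotation, updated by Entrez identifier through a RefSeq gene table (GRCm38.p6). Of all probe sets, 34945 had 1 symbol, 932 several and 9160 none listed, and 64 were controls. Using Python 3.11.15, numpy 2.4.6 and pandas 2.3.3, signals were quantile-normalized and expressed as log2(signal + 43.2), the pseudocount being the 25th percentile of all deposited signals. Of 18193 genes, 11513 had a mean at or above the median probe set. That number of arrays limits the precision, and no p-value was computed. Ratios understate differences of dim genes, compress those of the brightest, and can share signal between related CYP genes.

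The members and lists were chosen with earlier results of these data known. Named genes were every probe set of the 7 members, up to 4 genes of each of 10 lists with the largest mean second-exposure ratio, list genes past 2-fold in 1 direction in both, and the 5 nearest profiles. Values of single genes outside this rule (Tdo2, Nqo1, Apob, Alb and the other cell type markers named singly) were added after they were seen. Setting low signals to the filter level was also chosen after the data were seen. The steps were tested on simulated arrays. Some genes of the lists were not analysed here. Alternatives changed the normalization, pseudocount, filter and choice of probe sets.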

Additional observations from a re-analysis of the deposited data

Results flagged for a closer look

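The second-exposure ratios of Arnt and Cyp1a1 had opposite signs in mice given PBS first and in mice given ethylbenzene first. Arnt was at -0.40 on P+E against P+P and at 0.42 on E+E against E+P. Cyp1a1 was at -0.83 on P+E against P+P and at 0.54 on E+E against E+P. With 1 array per group the difference was not tested, and 34.7% of all genes past the filter had opposite signs as well. Of the 5 Arnt probe sets, the 2 next brightest were above 0 in both ratios. Cyp1a1 has a single probe set, whose P+E signal was below the filter level.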

How the results depend on the processing

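The 2-fold calls of Ahr and Tiparp after the second exposure held under all 8 alternatives and with signals below the filter level raised to it. A change of filter cannot alter a ratio, and the brightest probe sets of both genes were above that level on every array. So only the normalization, the pseudocount and the choice of probe sets could have changed these calls. Over all settings, Ahr ranged from 1.47 to 1.72 on P+E against P+P and from 1.30 to 1.53 on E+E against E+P, and Tiparp from 2.75 to 3.20 and from 2.76 to 3.66. Cyp1a2 stayed between -0.54 and -0.41 and between -0.62 and -0.57. Arnt on P+E against P+P ranged from -0.48 to 0.46, the latter as the mean of all probe sets. Cyp1b1 ranged from 0.77 to 3.66 and from 0.15 to 2.29, on signals below the filter level on average. Cyp1a1 on P+E against P+P reached -1.12 with a pseudocount of 1, past 2-fold. The 2-fold call of Arnt on E+E against P+E was lost as deposited (just under 1), at a common 75th percentile (0.99), with the median signal as pseudocount (0.91) and as the mean of probe sets (0.24), and that of Cyp1a1 with the median as pseudocount (0.67).

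The counts over all genes depended on the filter and pseudocount. For P+E against P+P, E+E against E+P, E+P against P+P, E+E against P+E and the difference of second-exposure ratios, in this order, genes at least 2-fold apart numbered 928, 947, 210, 364 and 918 with the median as pseudocount, against 1523, 1573, 611, 917 and 1739 as reported. Without a filter they were 3620, 3646, 2512, 3047 and 4676, and with a filter at the 75th percentile 618, 668, 72, 94 and 306. With the mean of probe sets, the first-exposure counts were 393 and 587. Genes past 2-fold in 1 direction in both second-exposure ratios were 2 bHLH-PAS relatives (4 as reported) and 7 immediate early genes (11 as reported) under the stricter filter. With the mean of probe sets they were 1 pericentral gene (3 as reported) and 8 immediate early genes. Fewer or more genes passed these filters by construction, and the cause of the other changes was not tested. No paired analysis was possible because each group had 1 array. For the same reason no replicate could be left out.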
